A study of Rattus norvegicus with 16 samples.

Results

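The cytosolic ribosome is built from a large (60S) and a small (40S) subunit, and its protein shell is encoded by the Rpl genes of the large and the Rps genes of the small subunit. Their messages are among the most abundant of any cell, and most of them begin with a stretch of pyrimidines, the 5′ terminal oligopyrimidine (TOP) motif, through which the mTOR kinase controls how much of the message is translated. In neurons, ribosomal proteins are made in the cell body and also from messages carried into dendrites and axons. The 86 genes described here were all those with a symbol of the form Rpl or Rps followed by a digit, or named Rplp0, Rplp1, Rplp2 or Rpsa, that were measured by a probe set with 1 gene symbol and a mean over 16 arrays above 4 on the log2 scale. Kinases of the Rps6k family were left out. The 86 genes had 290 such probe sets, of 11352 tested probe sets of 10423 genes in all, and a gene with several was represented by its brightest. The rule used names and mean levels and no difference between groups, but the set was chosen with earlier results of these data known.

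Gene expression was measured on Affymetrix Rat Gene 1.0 ST arrays in the prefrontal cortex (PFC) of adult male Sprague–Dawley rats. Rats of the footshock (FS) group (8 arrays) went through 1 stress session of 40 min, with 0.8 mA current and 20 min of actual shock, and were killed right after the session. The control rats (8 arrays) stayed in their home cages, so that shock, handling and the test box come together in the comparison. Values are log2 RMA values, on which a difference of 1 is a doubling, and the number of arrays limits the precision. Array medians lay between 4.05 and 4.15, pairwise correlations of arrays between 0.981 and 0.997, and no 2 arrays held identical values.

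By symbol, 55 of the 86 genes belonged to the large and 31 to the small subunit. A standard symbol of the cytosolic ribosome was carried by 55 (34 large, 21 small, of 77 standard symbols). A further 29 were copies, with the suffix l or -ps and a number, and 2 were named by likeness only. These are Rpl7l1, a relative of Rpl7 known from human cells as a factor in large subunit assembly, and Rps19bp1, a nucleolar protein that binds Rps19. RefSeq (GRCr8) listed 77 of the 86 as protein coding and 8 as pseudogenes, and Rps9 was not found by its gene ID. Of the 22 standard symbols that were not members, 13 were on probe sets shared with other symbols and Rps27 lay below the filter. The stalk proteins Rplp1 and Rplp2 were among the shared ones. By the rule, 64 further genes had a mean at or under 4 and were not tested. The members nearest to the limit were Rpl10l1 (mean 4.03), Rpl17-ps16 (4.04) and Rpl28l3 (4.17), and the nearest below it were Rps2-ps44 (3.92), Rps7-ps20 (3.90) and Rpl31-ps10 (3.88). Copies are close in sequence to the gene they derive from, so that probes of a copy and of its source may take up the same RNA, and values of both are uncertain in that respect.

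The TOP motif could be looked for in the RefSeq sequence around the annotated start of 65 members. A window of 30 bases was read on the transcribed strand, 15 before the start and 15 from it on. The windows below show genes with a pyrimidine run at or next to the start (Rps7, Rpl23, Rpl31, Rpl35, Rpl29) beside genes whose window has no long run at that place (Rps28, Rpl36, Rpl41, Rpl7l1, Rpl10l1), chosen because their values are described in the text. Capitals mark the longest unbroken run of C or T letters, and the first base of the message by the annotation is the 16th letter.
Rps7 (chr6:50999431-50999460, minus strand): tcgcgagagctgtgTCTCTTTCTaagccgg
Rpl23 (chr10:83272170-83272199, minus strand): actaaCTTCCTTTCTgactctttccggacg
Rpl31 (chr9:49143096-49143125, plus strand): ccacaatccctcgcgCCTTTCCTTTCCaac
Rpl35 (chr3:43165907-43165936, minus strand): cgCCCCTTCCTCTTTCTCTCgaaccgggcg
Rpl29 (chr8:115947628-115947657, plus strand): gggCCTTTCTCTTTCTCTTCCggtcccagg
Rps28 (chr7:15311319-15311348, minus strand): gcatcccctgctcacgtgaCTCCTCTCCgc
Rpl36 (chr9:1533765-1533794, plus strand): ctgTCCggccgccatcggaaagctgcaggt
Rpl41 (chr7:1563483-1563512, minus strand): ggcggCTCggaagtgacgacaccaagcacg
Rpl7l1 (chr9:21695703-21695732, plus strand): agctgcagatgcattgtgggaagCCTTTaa
Rpl10l1 (chr6:90281968-90281997, minus strand): tttggTCTCCattttgctgctggcggtgag
A run of at least 8 pyrimidines was present in 38 of the 65 windows (58.5%), against 3124 of 27457 windows of all promoters in the table (11.4%). It was in 32 of 47 standard genes (68.1%), in 6 of 16 copies (37.5%) and in neither Rpl7l1 nor Rps19bp1, whose longest runs were 5 and 3 bases. A C followed by at least 4 pyrimidines, beginning within 2 bases of the annotated start, was found in 25 of the 47 standard genes (53.2%), in 1 of 16 copies (6.25%) and in 8.48% of all promoters. Rpl35 and Rpl29 held the longest runs among the printed windows, at 18 bases. In Rpl23 the marked run ends just before the annotated start and so lies outside the annotated message. A shorter, unmarked pyrimidine run begins just after that start. In Rps28 the run of 9 pyrimidines begins 4 bases after the start, and the annotated starts of Rpl36 and Rpl41 carry no run over 3 bases. The absence of a run says only that these letters are not in this window, since the annotated start may not be the one used in PFC.

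Right after the session, the ribosomal protein genes lay slightly higher in FS than in control arrays as a group, and no single one passed the test. The difference was positive for 64 of 86 genes (74.4%), where 42.5% of all 11352 tested probe sets had a positive difference. The median difference of the members was 0.035 on the log2 scale, against -0.018 over all tested probe sets. With single arrays left out, the count of positive differences ran between 56 (without control replicate 8) and 69 (without control replicate 5), and the median between 0.022 (without control replicate 8) and 0.056 (without FS replicate 7). After Benjamini-Hochberg adjustment over all tested probe sets, limma called 0 of the 86, where 0% of the tested probe sets were called, and the lowest adjusted p of a member was 0.501. At an unadjusted limma p under 0.05, 4 members were higher (4.65%, against 3.65% of tested probe sets) and 2 were lower (2.33%, against 5.67%). Without regard to direction these are 6 of 86, against 9.32% of tested probe sets. Of the lower members, Rpl10l1 passed the filter only through the controls (mean 4.13, against 3.93 in FS arrays). With single arrays left out, the 4 higher members became 2 (without FS replicate 3 or 6 or control replicate 4 or 8), 7 (without FS replicate 2 or control replicate 1) or 8 (without control replicate 6). The share of all tested probe sets called higher moved as well, between 2.48% (without control replicate 2) and 6.11% (without control replicate 6). No member had FS and control arrays that did not overlap, and 0.044% of tested probe sets lay wholly above the controls and 0.0176% wholly below. Differences were small: 72 members moved by less than 0.1, 50 by less than their own standard error (SE, median 0.060), and 2 by more than 0.2. Because standard members varied together across arrays, as described further on, their signs are not separate observations, and no test was made over the list.

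**Figure D1:**
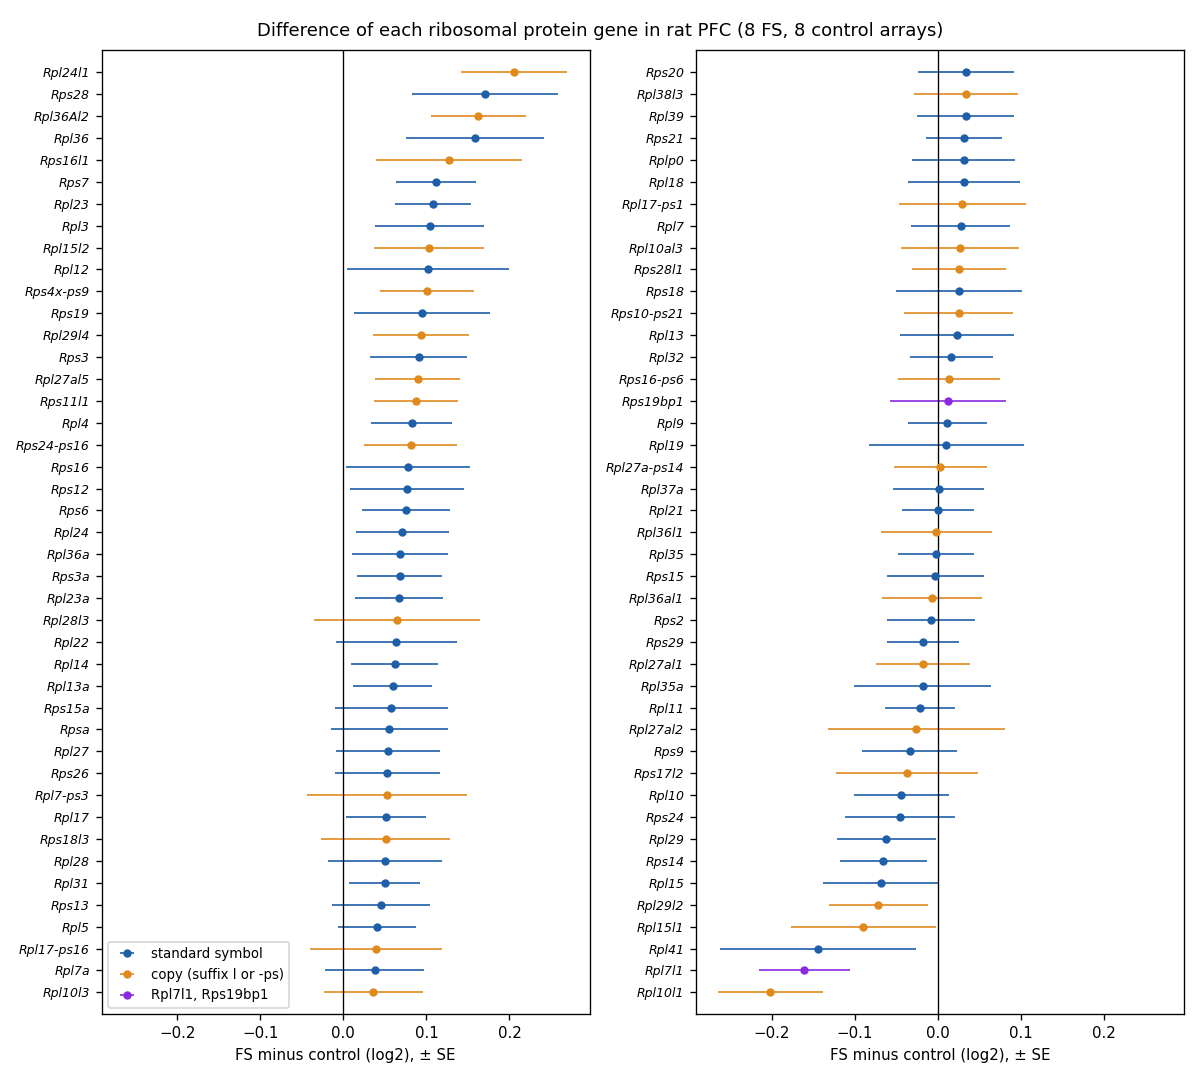
Difference FS minus control on the log2 scale (x axis) with its SE for each of the 86 ribosomal protein genes, in descending order over both panels, coloured as standard symbol, copy or named by likeness. The genes run between 0.21 for Rpl24l1 and -0.20 for Rpl10l1, 64 lie right of 0, and both ends are held by copies.

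Standard genes and copies, and both subunits, had a positive median difference. The 2 genes named by likeness had a median of -0.074. Of the 55 standard genes, 42 had a positive difference (median 0.041), and of the 29 copies 21 (median 0.034). In the small subunit 24 of 31 were positive (median 0.051) and in the large subunit 40 of 55 (median 0.034). Split by mean level, after the data were seen, the members' medians were 0.036 at levels between 4 and 6, 0.033 between 6 and 8, 0.034 between 8 and 10 and 0.045 above 10. The tested probe sets outside the rule had medians of -0.016, -0.023, -0.024 and -0.026 in the same bands.

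**Figure D2:**
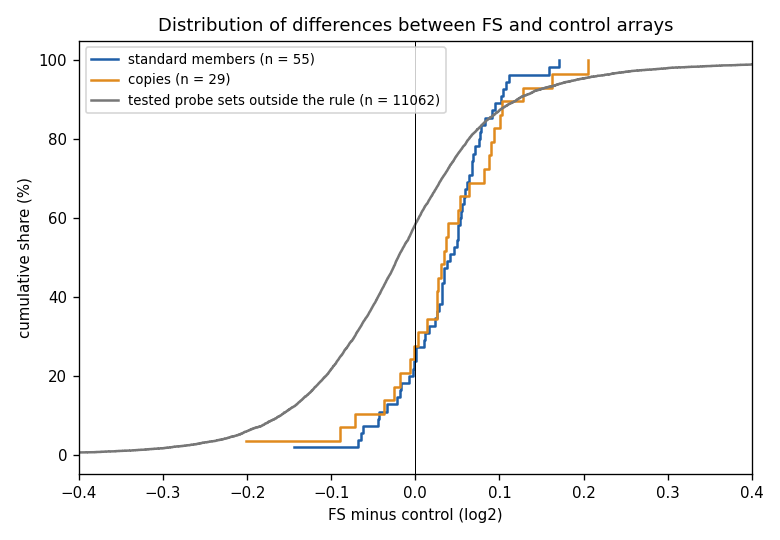
Cumulative share of genes or probe sets (y axis, percent) by the difference FS minus control on the log2 scale (x axis), for the 55 standard members, the 29 copies and the 11062 tested probe sets outside the rule. Both member curves lie right of the curve of the other probe sets at their medians (0.041 and 0.034, against -0.021) and have shorter tails.

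The highest standard genes were those of small proteins, 1 of each subunit. Rps28, a protein of the small subunit near the mRNA exit, had values of 8.02 to 8.54 in FS arrays (median 8.12) and 7.79 to 8.32 in control arrays (median 7.97). All 8 FS arrays lay above the control mean, though FS replicate 2 hardly did (8.0232, against 8.0231). Of the FS arrays, 2 lay above the highest control, and 3 control arrays exceeded the FS median, so that the groups overlapped. Its difference was 0.17 ± 0.088 (SE, limma p = 0.0688, adjusted p = 0.549, exact permutation p = 0.0856). Rpl36, of the large subunit, had values of 8.66 to 9.03 in FS arrays (median 8.80) and 8.40 to 8.92 in control arrays (median 8.69). Control replicates 2, 4 and 8 stood below all FS arrays, and the other controls lay among them, for a difference of 0.16 ± 0.083 (limma p = 0.0722, adjusted p = 0.551, exact permutation p = 0.0894).

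Rps7 and Rpl23 had the smallest p-values among standard genes. The marked pyrimidine run of Rps7 spans the annotated start, and that of Rpl23 ends just before it, as shown above. Rps7, which in human cells can also bind the p53 regulator MDM2, had values of 10.06 to 10.26 in FS arrays (median 10.19) and 9.95 to 10.21 in control arrays (median 10.05). FS arrays other than replicate 7 lay above the control mean, and 1 control array exceeded the FS median. Its difference was 0.11 ± 0.048 (limma p = 0.0322, adjusted p = 0.523, exact permutation p = 0.0205). Rpl23, a large subunit protein with the same reported MDM2 binding in human cells, had values of 8.18 to 8.41 in FS arrays (median 8.25) and 8.01 to 8.23 in control arrays (median 8.19). All 8 FS arrays lay above the control mean, 5 above the highest control, and FS replicate 6 was the highest of all, for a difference of 0.11 ± 0.046 (limma p = 0.0307, adjusted p = 0.52, exact permutation p = 0.00777). Rpl3, a core protein near the peptidyl transferase centre, had a difference of 0.10 ± 0.065 (adjusted p = 0.578).

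**Figure D3:**
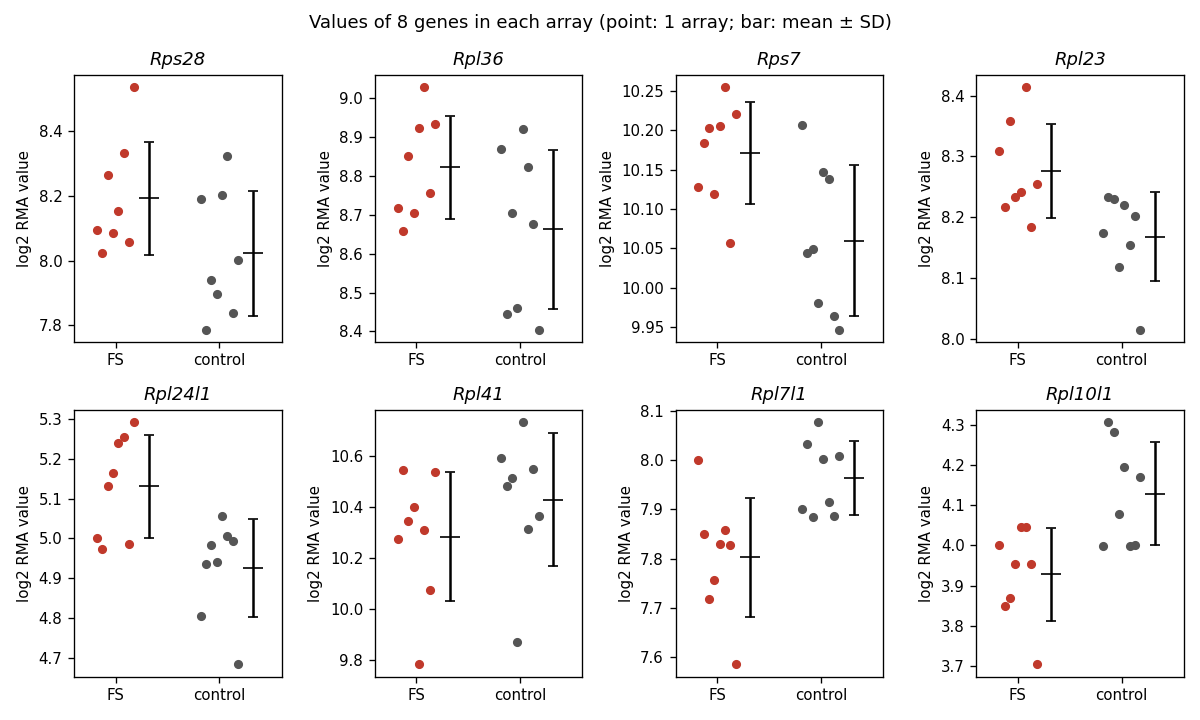
Log2 RMA values (y axes, each with its own range that does not start at 0) of 8 genes in each of 8 FS and 8 control arrays, with mean and SD beside the points. FS points of Rpl36, Rps7, Rpl23 and Rpl24l1 sit mostly in the upper part of the range. Those of Rpl7l1 and Rpl10l1 sit mostly in the lower part. In Rps28 most FS points lie near the middle of the range, and FS replicate 8 is at its top. The groups overlap in every panel.

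At the other end, Rpl7l1 and Rpl10l1 were the only members lower at an unadjusted p under 0.05. Rpl7l1, the Rpl7 relative without a pyrimidine run at its annotated start, had values of 7.59 to 8.00 in FS arrays (median 7.83) and 7.89 to 8.08 in control arrays (median 7.96). Of the FS arrays, 7 lay below the lowest control, while FS replicate 1 lay among the controls at 8.00. Its difference was -0.16 ± 0.055 (limma p = 0.00907, adjusted p = 0.503, exact permutation p = 0.00606). Rpl10l1, a copy of the Rpl10 family, had values of 3.70 to 4.05 in FS arrays (median 3.95) and 4.00 to 4.31 in control arrays (median 4.12). All 8 FS arrays lay below the control mean and 5 below the lowest control, for a difference of -0.20 ± 0.063 (limma p = 0.00509, adjusted p = 0.501, exact permutation p = 0.00653). This gene passed the filter by a narrow margin, and its mean was 3.93 in FS and 4.13 in control arrays, so that only the controls hold it above 4.

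Rpl41, the shortest ribosomal protein, was the lowest standard gene and the most variable member, with an SD within groups of 0.26. The lowest, median and highest values in FS arrays were 9.78, 10.33 and 10.54, against 9.87, 10.50 and 10.73 in control arrays. FS replicate 5 and control replicate 4 stood low in either group, and the difference of -0.14 ± 0.12 was not distinguishable from the spread (adjusted p = 0.658). The other standard genes at the low end were Rpl15 (-0.068 ± 0.070), Rps14 (-0.065 ± 0.052) and Rpl29 (-0.062 ± 0.059), with adjusted p-values between 0.650 and 0.720. With single arrays left out, Rpl41 lay between -0.22 (without control replicate 4) and -0.072 (without FS replicate 5). Rpl15 lay between -0.10 (without control replicate 1) and -0.027 (without FS replicate 7), Rps14 between -0.080 (without control replicate 8) and -0.041 (without control replicate 1), and Rpl29 between -0.084 and -0.028 without the same 2 arrays. Rps14 is the gene whose loss causes the anaemia of human 5q- syndrome. The copies Rpl15l1 (-0.089 ± 0.087) and Rpl29l2 (-0.071 ± 0.060) also lay at the low end, with adjusted p-values of 0.702 and 0.665, while other copies named after the same genes had positive differences, Rpl15l2 0.10 ± 0.066 and Rpl29l4 0.094 ± 0.058. Rpl15l1 lay between -0.12 (without FS replicate 1) and -0.021 (without FS replicate 8) when single arrays were left out.

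Among copies, Rpl24l1 and Rpl36Al2 had the smallest p-values of the higher members. Rpl24l1 had values of 4.97 to 5.29 in FS arrays (median 5.15) and 4.68 to 5.06 in control arrays (median 4.96). All 8 FS arrays lay above the control mean and 5 above the highest control, and control replicate 8 was the lowest array, for a difference of 0.21 ± 0.064 (limma p = 0.00512, adjusted p = 0.501, exact permutation p = 0.00668). The standard gene Rpl24 had a difference of 0.071 ± 0.056 (adjusted p = 0.645). Rpl36Al2 had values of 4.32 to 4.67 in FS arrays (median 4.46) and 4.08 to 4.45 in control arrays (median 4.36) and a difference of 0.16 ± 0.057 (limma p = 0.0109, adjusted p = 0.509, exact permutation p = 0.0042). The standard gene Rpl36a had a difference of 0.068 ± 0.058 (adjusted p = 0.667). Rps16l1 (0.13 ± 0.088) and Rps16 (0.078 ± 0.074) both lay within the spread (adjusted p = 0.605 and 0.699).

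Genes were also ordered by their place in the ribosome, and none of those named for their role passed the adjusted threshold. At the exit of the peptide tunnel, where the growing chain leaves the large subunit, 7 of 8 measured genes had a positive difference. With 8 genes this is not set apart from the 74.4% of all members. None of the 8 passed an unadjusted p under 0.05, where 3.65% of tested probe sets were higher and 5.67% lower. The highest was Rpl4, which lines the tunnel, at 0.082 ± 0.049 (adjusted p = 0.566). Its values were 9.86 to 10.15 in FS and 9.84 to 10.03 in control arrays, and 4 FS arrays exceeded the highest control. Rpl23a was at 0.067 ± 0.053, Rpl22 at 0.064 ± 0.073, Rpl17 at 0.051 ± 0.048 and Rpl31 at 0.050 ± 0.042. Single arrays mattered at this size: Rpl22 was at 0.027 without control replicate 2 and 0.098 without control replicate 1. Rpl17 was at 0.027 without FS replicate 3 and 0.068 without FS replicate 1. Rpl23a was at 0.040 without FS replicate 8 and 0.090 without control replicate 5, and Rpl39 at 0.012 without control replicate 8 and 0.061 without control replicate 1. Rpl39, also in the tunnel wall, was at 0.034 ± 0.058, Rpl19 at 0.011 ± 0.093 and Rpl35 at -0.0022 ± 0.046, all 3 smaller than their SE, and Rpl35 was at 0.016 with each array centred on its median.

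On the small subunit, Rps3, at the entry of the message, had values of 8.39 to 8.65 in FS arrays (median 8.62) and 8.29 to 8.61 in control arrays (median 8.52). Of the FS arrays, 5 exceeded the highest control, while FS replicate 7 was low, and the difference was 0.091 ± 0.059 (limma p = 0.138, adjusted p = 0.588, exact permutation p = 0.124). Rps2, of the same region, and Rps15, near the decoding site, were at -0.0077 ± 0.053 and -0.0029 ± 0.058, both smaller than their SE and at 0.010 and 0.015 with each array centred on its median. Rps6, the ribosomal substrate of S6 kinase, which is phosphorylated downstream of mTOR in active neurons, was at 0.075 ± 0.053 (adjusted p = 0.612). The lowest, median and highest values in FS arrays were 8.48, 8.63 and 8.79, against 8.42, 8.56 and 8.68 in control arrays, with 5 of 8 FS arrays above the control mean. Its message level says nothing of its phosphorylation. Rpsa, also known as the laminin receptor, was at 0.055 ± 0.070 (adjusted p = 0.781), and between 0.026 (without control replicate 2) and 0.088 (without FS replicate 7) with single arrays left out.

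Rpl5 and Rpl11 form a particle with 5S ribosomal RNA that in human cells binds MDM2 when assembly of ribosomes is disturbed. Rpl5 was at 0.041 ± 0.047 and Rpl11 at -0.022 ± 0.042, both smaller than their SE (adjusted p = 0.756 and 0.857). Rplp0, the base of the stalk that binds elongation factors, was at 0.032 ± 0.062 (adjusted p = 0.858). With single arrays left out, Rpl5 lay between 0.020 (without control replicate 8) and 0.057 (without control replicate 5). Rpl11 lay between -0.033 (without FS replicate 8) and -0.0077 (without FS replicate 7), and Rplp0 between 0.0081 (without control replicate 2) and 0.063 (without FS replicate 7). Rps19bp1 was at 0.012 ± 0.070 (adjusted p = 0.956). Rack1, a ribosomal protein of the small subunit head that the rule on names leaves out, was at 0.013 ± 0.067 (adjusted p = 0.950).

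Where a gene had many probe sets, they bore on how far 1 probe set stands for it. Of the 86 genes, 52 had 1 probe set above the filter, and 17 had at least 4. All 10 probe sets of Rpl36 had a positive difference (0.092 to 0.18, median 0.12), 1 of them at an unadjusted p under 0.05. The 9 of Rps19 (0.025 to 0.11), the 11 of Rps20 (0.022 to 0.076) and the 11 of Rpl9 (0.0054 to 0.048) were also all positive. The 8 of Rpl29 (-0.062 to -0.025) and the 11 of Rpl35a (-0.033 to -0.0030) were all negative. Rpl21 had 46 probe sets, 43 of them positive, with a median of 0.025, while the brightest, which stands for the gene, was at 0.00073. Rpl7a had 44, of which 38 were positive, and its range was the widest (-0.077 to 0.18). The highest of them, at 0.18 ± 0.24 and 0.17 ± 0.16, were dim probe sets with means of 6.23 and 5.38, against 8.50 for the brightest. Probe sets of 1 gene measure the same RNA and its copies and are not replicates. Their residuals from the group means correlated at a median r between 0.83 and 0.96 within the 7 genes with 9 or more of them. Some probe sets of Rpl36, Rps20 and Rpl35a share the same mean, difference and SE, and they enter these counts and correlations more than once.

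**Figure D4:**
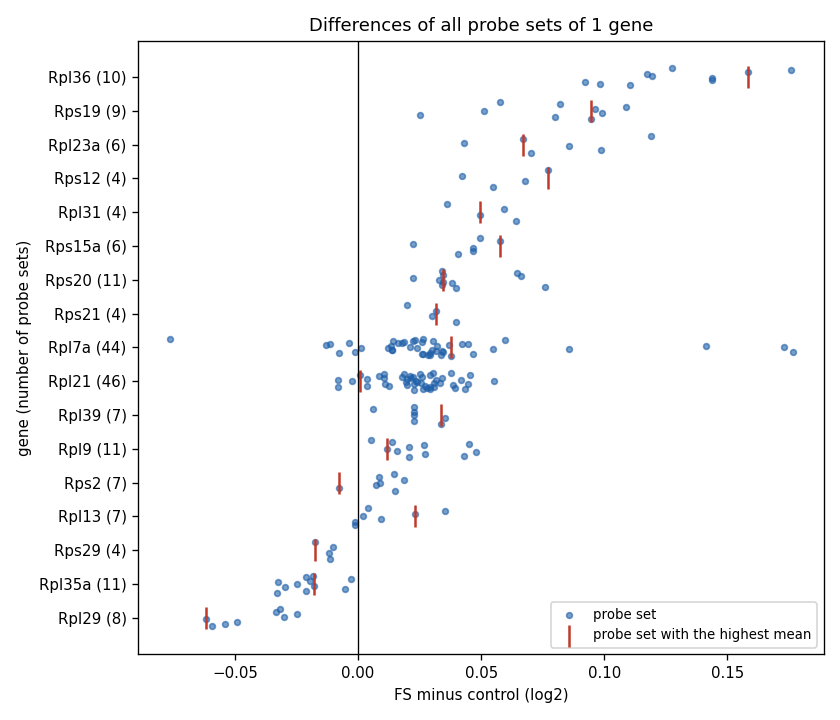
Difference FS minus control on the log2 scale (x axis) of every probe set above the filter for the 17 genes with at least 4 of them (y axis, number in brackets), with the probe set of the highest mean marked. All probe sets of Rpl36 lie right of 0 and all of Rpl29 left of it, and those of Rpl7a spread the most.

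The standard genes varied together from array to array, and most copies did not. The copies were also measured at lower levels. By array, the mean level was 5.48 to 5.61 over the copies and 8.71 to 8.96 over the standard genes. Level and copy status cannot be told apart here. After removal of the group means, the median correlation of 2 standard members over the 16 arrays was 0.52, against 0.033 for 2 copies and 0.058 for 2 of all tested probe sets. The arrays, their RNA and their normalisation are shared by all genes, so these are descriptions. The standard gene most like the mean of the other standard members was Rpl39 (r = 0.93, 16 arrays), followed by Rpl32 (0.91), Rps19 (0.90), Rps26 (0.90) and Rps2 (0.89). In all, 33 of 55 standard genes were above 0.7, and 4 were under 0.3, namely Rpl28 (0.27), Rpl10 (0.21), Rpl35a (0.18) and Rpl15 (0.027). Rpl28, Rpl10 and Rpl35a all have a C with 4 pyrimidines at the start, as do 25 of the 47 standard genes with a window, so this does not set them apart. No window was read for Rpl15. The median over the copies was 0.070, though Rps4x-ps9 (0.76) and Rpl27al5 (0.75) were close to the standard genes. The lowest values were those of Rpl27al2 (-0.39), Rpl7l1 (-0.33), Rpl10l1 (-0.30), Rpl7-ps3 (-0.29), Rps11l1 (-0.27) and Rpl36Al2 (-0.24), genes with positive as well as negative differences. The median SD within groups was 0.11 for members and 0.15 for all tested probe sets.

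The array score, the mean over the 86 genes of the value minus the gene's own mean, differed more within groups than between them. It averaged 0.016 ± 0.054 in FS and -0.016 ± 0.061 in control arrays (SD, n = 8 each). FS scores ran between -0.083 and 0.092 with a median of 0.026, and control scores between -0.11 and 0.055 with a median of -0.016. FS replicates 6 and 3 were the highest arrays, and control replicate 8, FS replicate 7 and control replicate 2 the lowest, so that the groups overlapped over most of their range. For the 55 standard genes alone, FS scores lay between -0.10 and 0.12 and control scores between -0.13 and 0.087.

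**Figure D5:**
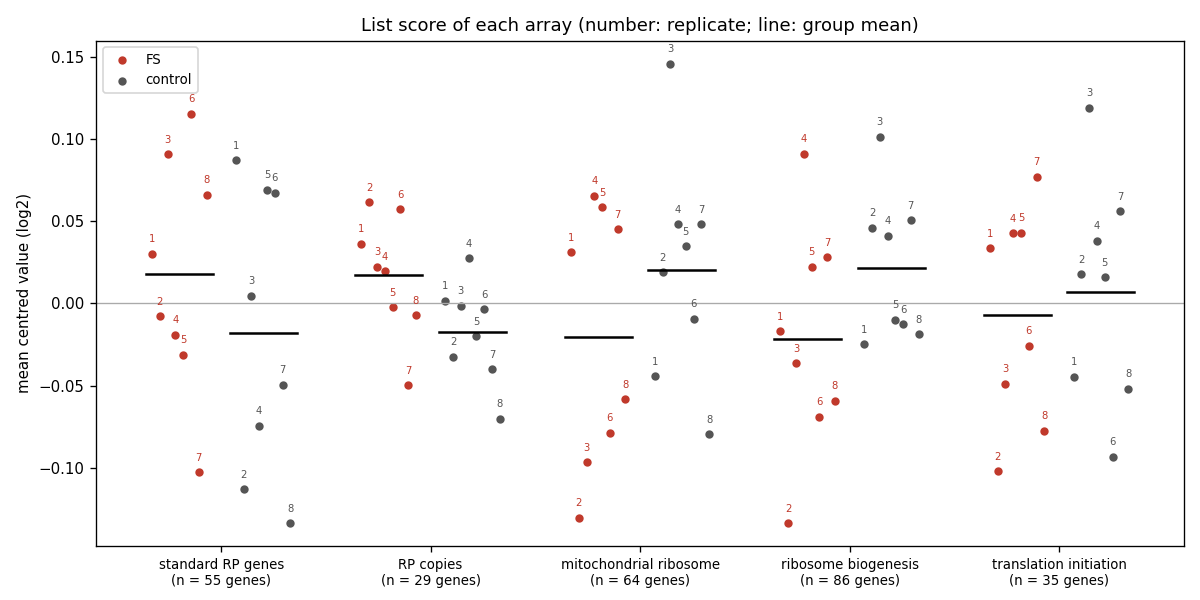
Score of each array (y axis, mean centred log2 value over the genes of a list) for 5 lists, FS arrays left of control arrays, with replicate numbers and group means as lines. Group means of ribosomal protein genes and copies are higher in FS and those of the mitochondrial ribosome and ribosome biogenesis lower, and the points of both groups overlap in every list.

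Markers of other cells also differed between arrays. Over all tested probe sets, 42.5% had a positive difference, and 3.65% were higher and 5.67% lower at an unadjusted limma p under 0.05. The label names prefrontal cortex, and 10 of 11 listed markers of cortical glutamatergic neurons passed the filter, all with lower means in FS arrays (median difference -0.35, 0 of 10 at an unadjusted p under 0.05). Of the markers of striatal medium spiny neurons, which belong to a neighbouring region, 13 of 15 passed the filter and all 13 had higher means in FS (median 0.84, 3 at an unadjusted p under 0.05), with array scores between -1.02 and 1.45 in FS and between -0.99 and 1.73 in control arrays. FS replicates 3, 6 and 8 and control replicate 6 scored 1.00 or more on them, and their ribosomal protein scores were 0.062, 0.092, 0.037 and 0.042. FS replicate 7 and control replicates 2 and 8, the lowest on ribosomal proteins, scored -1.02, -0.92 and -0.99. Other arrays did not follow this order: control replicate 5 had a ribosomal protein score of 0.039 and a striatal score of -0.64, and FS replicate 4 had -0.0083 and 0.83. Of the markers of oligodendrocytes and myelin, 13 of 14 passed the filter and all 13 were higher at an unadjusted p under 0.05 (median 0.40, 0 at the adjusted threshold), with scores between -0.039 and 0.37 in FS and between -0.65 and 0.22 in control arrays. None of the 5 markers of choroid plexus and ependyma passed the filter. Astrocyte markers were positive in 4 of 7 (median 0.0099) and microglia markers in 4 of 9 (median -0.017). Markers of GABAergic interneurons were positive in 4 of 7 (median 0.17) and those of endothelium in 3 of 6 (median -0.013). Meningeal fibroblast markers were positive in 8 of 8 (median 0.38), markers of smooth muscle and pericytes in 5 of 6 (median 0.23) and markers of red blood cells in 3 of 3 (median 0.23), with 0 of each at an unadjusted p under 0.05. FS replicates 3 and 6, the highest arrays on ribosomal proteins, were also the highest on smooth muscle and pericyte markers (0.82 and 1.24, against -0.28 to 0.093 in the other 14 arrays) and on meningeal markers (0.60 or more, against -0.68 to 0.46 in the other 14). The part of tissue composition in the ribosomal protein values was not tested, and in bulk tissue fewer cells of a type and less RNA per cell cannot be told apart.

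Other lists of protein synthesis had smaller shares of positive differences. Of the genes of the mitochondrial ribosome, 18 of 64 were positive (median -0.034), with 0 higher and 3 lower at an unadjusted p under 0.05 (4.69%), namely Mrpl4, Mrpl12 and Mrpl44. Over all tested probe sets, 42.5% were positive, 3.65% higher and 5.67% lower, so that the share called lower in this list was no larger than the background. Of the genes of ribosome biogenesis, which process ribosomal RNA and assemble subunits, 29 of 86 were positive (33.7%, median -0.045), with 0 higher and 6 lower (6.98%), near the same background. The lowest p among these was that of Rrp9, a protein of the U3 particle, at 5.08 in FS and 5.28 in control arrays, a difference of -0.20 ± 0.057 (limma, adjusted p = 0.501). Translation initiation had 16 of 35 positive (median -0.0056), with 2 higher, Eif4a1 and Eif4g2, and 1 lower, Eif3d. Elongation and termination had 4 of 14 positive (median -0.023), with Eef1e1 higher and Eif5a lower. No gene of these lists passed the adjusted threshold of 0.05.

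Messages outside the ribosome that are known to carry a TOP motif had 12 of 16 positive differences (median 0.023). Tpt1, the translationally controlled tumour protein, was at 9.74 in FS and 9.61 in control arrays, a difference of 0.13 ± 0.040 (limma, adjusted p = 0.501). Vim was at 0.49 ± 0.23 and was the only other member of that list past an unadjusted p of 0.05. These 2 are 12.5% of the list, where 3.65% of all tested probe sets were higher and 42.5% had a positive difference. The list scored highest in FS replicates 3 and 6 (0.14 and 0.11), the arrays highest on smooth muscle and meningeal markers. Whether tissue composition plays a part was not tested. Within the ribosomal protein genes, those with a run of at least 8 pyrimidines anywhere in the window had a median difference of 0.033 (28 of 38 positive). Those with a shorter run had a median of 0.068 (20 of 27 positive). This split does not sort genes by TOP motif. The long run of Rps3 lies wholly before the annotated start, and Rpl12, with a shorter run, has a C with 4 pyrimidines at the start. Of the mTOR and S6 kinase genes, 17 of 36 were positive (median -0.014). Ddit4, an inhibitor of mTOR complex 1 that glucocorticoids induce, was at 6.04 in FS and 5.68 in control arrays, a difference of 0.36 ± 0.082 (limma, adjusted p = 0.495). Mlst8, a subunit of mTOR complexes, and Akt1s1, an inhibitory subunit of complex 1, were at -0.13 ± 0.060 and -0.21 ± 0.090 (adjusted p = 0.523 for both).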

How the data were processed

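Deposited log2 values were used as the authors made them: they read the scanner files of Affymetrix Rat Gene 1.0 ST arrays with oligo (version 1.58.0) and normalised all arrays together by RMA, which hides any change shared by most genes on an array. Groups and replicate numbers came from the sample labels. The methods count 8 rats a group. The table held 29214 probe sets, of which 18644 had 1 symbol in the platform annotation, 962 several and 9608 none. The 11352 with 1 symbol and a mean over 16 arrays above 4 were tested with limma (version 3.58.1 in R 4.3.3, lmFit, eBayes, group only) and Benjamini-Hochberg adjustment over all of them. The procedure was first tried on simulated, independent values with shifts larger than any member's difference. That trial does not show whether shifts as small as those of the members would be found. Exact two-sided permutation p-values for single genes used all 12870 assignments of arrays to groups of 8, with 0.000155 as the smallest possible.

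The genes, the comparison lists and the marker lists were chosen with earlier results of these data known, so that no list was tested. Genes were named if their difference ranked among the 8 at either end, if their p-value was among the 5 smallest of its sign, or if their role in the ribosome is known. Rpl24, Rpl36a, Rps16, Rpl15l2, Rpl29l4 and the genes with many probe sets or marked likeness to the family were added after their values were seen, as were the split by level, the likeness measure and the C with 4 pyrimidines. Likeness was the correlation of residuals from the group means with the mean of the other standard members. Start windows were taken from RefSeq promoters (GRCr8) by gene ID. Array positions on the genome were not used. Alternatives were another filter, array centring, array weights, a robust trended prior, the mean of a gene's probe sets, probe sets with several symbols, a replicate block and leaving out arrays.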

Additional observations from a re-analysis of the deposited data

Results flagged for a closer look

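Among the 33 named ribosomal protein genes and their scores, each looked at in FS and in control arrays, 3 of 68 groups of 8 held an array set apart from the rest by more than 0.526 of the group's range. Chance gives about 1 in 20 groups, so that 3 is no more than it would give.

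Rpl35 was at 9.60 in FS replicate 6, against 9.43 to 9.50 in the other FS arrays. Rpl15 was at 5.37 in FS replicate 7, against 5.60 to 5.80 in the other FS arrays. Rpl29 was at 10.13 in control replicate 1, against 9.73 to 9.92 in the other control arrays. FS replicate 6 had the highest and FS replicate 7 the lowest ribosomal protein score of the FS group.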

How the results depend on the processing

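No ribosomal protein gene passed the adjusted threshold under any of the 25 alternatives. The count of genes higher at an unadjusted p under 0.05 was 4 and became 7 with array weights (where 6.22% of all tested probe sets were higher, against 3.65%) and 10 of 150 genes without a filter (3.16% of all), and leaving out single arrays moved it between 2 (without FS replicate 3 or 6 or control replicate 4 or 8) and 8 (without control replicate 6), with 7 without FS replicate 2 or control replicate 1. The count of lower genes was 2 and became 1 with a mean above 5 (where 5.82% of all tested probe sets were lower). It was 2 to 3 without single arrays, where the share of all tested probe sets ran between 3.20% (without FS replicate 3) and 10.4% (without control replicate 6). Positive differences numbered 107 of 150 genes without a filter, where 44.5% of all tested probe sets were positive. They numbered 56 to 69 of 86 without single arrays (39.9% to 47.0% of all), and 70 of 86 with each array centred on its median (49.8% of all). The median difference lay between 0.022 (without control replicate 8) and 0.056 (without FS replicate 7) without single arrays, and at 0.053 after centring. With array weights Rpl35 was at 0.017 and Rps15 at 0.014, and after centring Rpl35 was at 0.016, Rps15 at 0.015 and Rps2 at 0.010. Rps2 was at 0.0094 with the mean of its probe sets. Without FS replicate 3 and control replicate 6 together, 66 genes were positive (42.3% of all tested probe sets) with a median of 0.040. Rpl35 was then at 0.020, Rps15 at 0.00046 and Rps2 at 0.0013, and the cause was not tested. Without single arrays Rpl19 lay between -0.029 and 0.061, Rpl35 between -0.019 and 0.013, Rps15 between -0.029 and 0.019, Rps19bp1 between -0.028 and 0.046 and Rps2 between -0.030 and 0.015. The other 28 named genes kept their direction in every alternative that gave them a value; Rpl36Al2 and Rpl10l1 had none with a mean above 5. The replicate numbers were not treated as pairs in the main fit. Of the same-numbered pairs, 4 of 8 had correlated deviations over 0.1 (range -0.31 to 0.49). FS replicates 6 and 7, 2 of 8 FS arrays, were most like the control of their own number. Whether same-numbered arrays were handled together was not tested. With a replicate block, 6 genes were higher and 2 lower at an unadjusted p under 0.05. Of all tested probe sets, 4.43% were higher and 6.51% lower with that block. With it 0 genes passed the adjusted threshold, 64 were positive and the median was 0.035.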
